A study of Mus musculus with 23 samples.

Results

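The genes described here are 9 enzymes and regulators of de novo lipogenesis, the making of fatty acids from carbon that is not fat: Acly, Acss2, Acaca, Acacb, Fasn, Me1, Srebf1, Mlxipl and Thrsp. They were taken by symbol from the table of normalized counts of brown adipose tissue (BAT), and all 9 were among the 14651 genes of that table. RNA was sequenced from the BAT of 23 male mice aged 8 to 12 weeks in 4 groups. At room temperature (RT) there were 6 control and 6 BAT-Mcu-KO mice, and at 4°C there were 5 control mice with 6 BAT-Mcu-KO mice. Control mice were Mcu fl/fl, and BAT-Mcu-KO mice were Mcu fl/fl;Ucp1-Cre, so the floxed Mcu alleles were shared by all groups and the genotypes differed in the Cre transgene, which the Ucp1 promoter drives in brown adipocytes. Mcu encodes the pore of the mitochondrial calcium uniporter. The stay at 4°C lasted 6 h, and each mouse spent it alone in a cage without bedding. By the study's methods, mice at 4°C had no food unless this was stated otherwise, and whether the RT mice of the sequencing experiment were fed is not given in the sources used here. Cold and the lack of food therefore cannot be told apart in the comparisons below.

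In de novo lipogenesis, citrate leaves the mitochondria and is split into acetyl-CoA in the cytosol, acetyl-CoA is carboxylated to malonyl-CoA, and fatty acid synthase joins the units into palmitate at the expense of NADPH. The transcription factors SREBP-1 (gene Srebf1), which responds to insulin, and ChREBP (gene Mlxipl), which responds to glucose, raise the transcripts of most of these enzymes. Brown fat expresses this pathway, and in the cold it burns fatty acids to make heat.

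The 250 bases before the start site are shown for the 2 genes whose transcripts fell most in the cold, Thrsp and Srebf1, and for Fasn, the end enzyme of the pathway, whose transcript fell less. Sequences are from RefSeq on GRCm38.p6, written 5′ to 3′ on the strand of the gene. All 3 genes lie on the minus strand, at chr7:97417551-97417800 (Thrsp), chr11:120824548-120824797 (Fasn) and chr11:60210472-60210721 (Srebf1). Srebf1 has 3 starts in RefSeq, and the one shown is nearest the 3′ end of the gene. The reads were counted per gene, so the starts cannot be told apart in these data. Capitals mark the letters CCAAT, or ATTGG where CCAAT is on the other strand, the core of the site bound by NF-Y.
Thrsp: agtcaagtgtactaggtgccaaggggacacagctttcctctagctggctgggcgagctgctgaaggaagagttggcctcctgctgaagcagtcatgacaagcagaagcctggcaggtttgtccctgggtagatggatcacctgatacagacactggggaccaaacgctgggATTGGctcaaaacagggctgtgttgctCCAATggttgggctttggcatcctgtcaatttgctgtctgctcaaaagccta
Fasn: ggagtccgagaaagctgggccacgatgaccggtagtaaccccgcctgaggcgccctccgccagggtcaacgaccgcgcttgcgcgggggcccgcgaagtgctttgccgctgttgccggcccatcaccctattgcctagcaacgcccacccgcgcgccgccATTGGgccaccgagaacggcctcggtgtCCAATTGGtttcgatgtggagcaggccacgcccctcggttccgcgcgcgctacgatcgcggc
Srebf1, start nearest the 3′ end: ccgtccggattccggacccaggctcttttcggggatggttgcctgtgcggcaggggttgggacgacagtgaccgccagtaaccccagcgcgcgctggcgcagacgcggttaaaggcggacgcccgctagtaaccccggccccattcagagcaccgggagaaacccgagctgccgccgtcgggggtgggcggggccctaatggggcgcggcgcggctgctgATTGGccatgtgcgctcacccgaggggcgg
The Fasn window held CCAAT 3 times, and 2 of these, on opposite strands, overlap in the unbroken stretch of 8 capitals. It occurred 2 times in the Thrsp window and 1 time in the Srebf1 window. Over the 13 windows of the 9 genes, CCAAT on either strand was found in 8, which belong to 7 of the 9 genes, against 33.8% of the 32851 windows of the same length before all starts of the RefSeq table. The only starts used for Acaca (chr11:84195438) and Acacb (chr5:114165518) lie inside these genes, which begin at 84129672 and 114146535. Whether transcripts begin at these starts in brown fat was not tested. The E-box CACGTG was found in 1 of the 13 windows (6.02% of all windows) and the sterol regulatory element TCACNCCAC in 1 (1.05%), both before starts of Mlxipl. The cAMP response element TGACGTCA was found in none of the 13 (1.55% of all windows). These are matches of letters on both strands, with no measure of binding.

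The depth was 7129271 to 21006347 reads per mouse, and mitochondrial transcripts took 23.1% to 38.1% of them. Mcu had a mean normalized count of 109.5 at RT in control mice against 35.1 where it was deleted, and every BAT-Mcu-KO mouse, at 15.2 to 42.4, was below every control mouse, at 70.8 to 136. All 8 markers of brown adipocytes were measured in every mouse, none of them at 0. BAT-Mcu-KO replicate 5 at RT stood apart. The median correlation of its log2 values with those of the rest of its group was 0.914, the lowest of the 23 mice, followed by 0.918 for control replicate 1 at 4°C, and the remaining 21 mice had 0.934 to 0.974. Results that rest on this mouse are given with and without it.

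At 4°C the transcripts of 8 of the 9 genes were lower than at RT in control mice and of the same 8 in BAT-Mcu-KO mice, and none was higher. The exception in both genotypes was Me1, whose log2 fold change was also below 0. The tests were made with limma on log2(normalized count + 1), and a gene was called at a Benjamini-Hochberg adjusted p under 0.05 over the 14651 genes. Among all genes, 23.7% were called lower and 22.3% higher by cold in control mice, and 21.9% lower and 21.4% higher in BAT-Mcu-KO mice. Of all calls in control mice, 48.5% were higher, or 38.2% when each library was scaled to its 75th percentile, which moved the median over all genes from -0.02 to -0.13 on the log2 scale. The median over the 9 genes was -0.88 in control mice and -0.93 in BAT-Mcu-KO mice, beside -0.02 over all genes in both. Every cold mouse was below every RT mouse for 2 of the 9 genes in control mice (Srebf1 and Thrsp) and for 4 in BAT-Mcu-KO mice (also Acacb and Mlxipl), beside 12.3% and 11.9% of all genes. By their estimates, Srebf1 and Thrsp fell most in both genotypes, Acly and Acss2 came next, and the rest fell less. The genes were not tested against each other. The 95% interval of Acly in control mice, -2.65 to -0.54, held the estimates of Acaca (-0.88) and Fasn (-0.73). Whole tissue was sequenced, so for a single gene fewer cells of a type and less RNA per cell cannot be told apart. Adipoq, Fabp4, Cidea and Plin1, all among the 8 brown adipocyte markers, were measured beside the 9. In BAT-Mcu-KO mice the log2 fold change by cold was -0.01 ± 0.11 for Adipoq and 0.01 ± 0.11 for Fabp4. Cidea had -0.09 ± 0.09 and Plin1 0.22 ± 0.16 in these mice, and none of these was called. In control mice Adipoq had -0.38 ± 0.12 and Cidea -0.32 ± 0.10, both called lower. Fabp4 had -0.24 ± 0.12, which was not called, and Plin1 had 0.47 ± 0.17, which was called higher. The rest of the 8 were Prdm16, Cox7a1, Ucp1 and Ppargc1a. Prdm16 had -0.71 ± 0.18 in control mice and -0.73 ± 0.17 in BAT-Mcu-KO mice, both called lower. Cox7a1 had -0.41 ± 0.17 and -0.14 ± 0.16, and neither was called. Ucp1 (1.37 ± 0.10 and 1.47 ± 0.10) and Ppargc1a (5.10 ± 0.23 and 4.33 ± 0.22) were called higher in both genotypes. Of all 8 markers, 3 were called higher and 3 lower in control mice, and 2 higher and 1 lower in BAT-Mcu-KO mice.

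**Figure D1:**
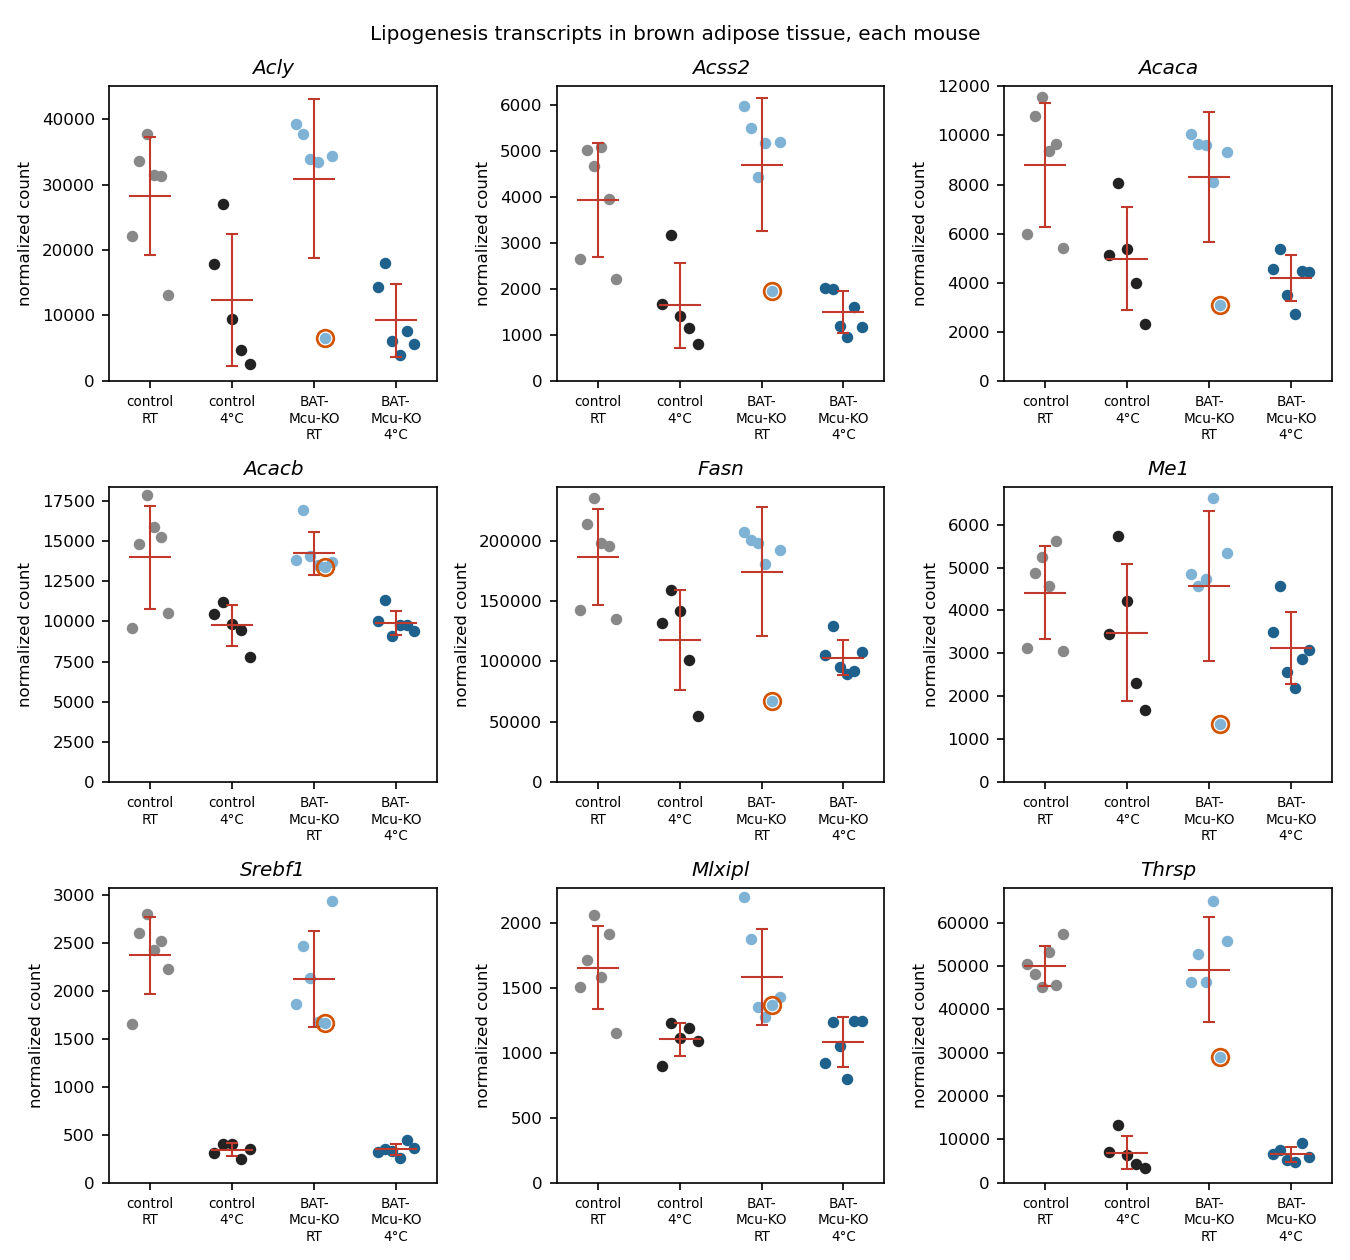
Normalized count of each gene (vertical axes, linear, from 0) in each mouse (points) of the 4 groups, with the mean and SD of the group as a red bar and whiskers; the orange ring marks BAT-Mcu-KO replicate 5 at RT. For Srebf1 and Thrsp the RT and 4°C mice are apart in both genotypes, while for Acly, Acss2, Acaca, Fasn and Me1 the ringed mouse lies among or below the mice at 4°C.

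The transcripts of Acly and Acss2, whose enzymes make cytosolic acetyl-CoA, were lower in the cold. Acly (chr11:100476353-100528000 on GRCm38, minus strand) encodes ATP citrate lyase, which splits citrate. Its normalized count in control mice at 4°C was 17895, 27058, 9497, 4725 and 2510, a range of 10.8-fold among 5 mice of the same treatment, against a lowest value of 13090, a median of 31382 and a highest value of 37667 at RT. The groups overlapped, since 2 of the cold mice were above the lowest RT mouse. In BAT-Mcu-KO mice the lowest, median and highest counts were 6512, 34104 and 39294 at RT and 3908, 6791 and 17932 at 4°C. Here 5 of the 6 RT mice were above every cold mouse, and the remaining RT mouse was replicate 5. The log2 fold change of Acly was -1.59 ± 0.51 (SE) in control mice (limma adjusted p = 0.0129) and -1.75 ± 0.49 in BAT-Mcu-KO mice (adjusted p = 0.00506). Without the lowest control mouse at 4°C, replicate 5, the value in control mice was -1.14 and no longer passed the test (adjusted p = 0.0636). Without BAT-Mcu-KO replicate 5 at RT, the value in BAT-Mcu-KO mice was -2.16 (adjusted p = 0.000343).

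Acss2 (chr2:155517948-155585724, plus strand) encodes the acetyl-CoA synthetase of the cytosol and nucleus, which makes acetyl-CoA from acetate. Control mice at 4°C had normalized counts of 1663, 3173, 1420.0, 1153 and 789.8, and control mice at RT had 2213 to 5098 with a median of 4323. Of the 5 cold mice, 4 were below every RT mouse, and replicate 2 was not. BAT-Mcu-KO mice had 1958 to 5977 (median 5195) at RT and 958 to 2026 (median 1398) at 4°C. The RT group again reached into the cold group only through replicate 5. Acss2 fell by 1.35 ± 0.31 on the log2 scale in control mice (limma adjusted p = 0.000712) and by 1.63 ± 0.29 in BAT-Mcu-KO mice (adjusted p = 5.8e-05), and both calls held without any 1 mouse. Parts of the Acss2 exons, at most 3.89% of their bases for each gene, overlap exons of Ggt7, Acss2os and Gss on the other strand, and the counting did not use strand.

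The acetyl-CoA carboxylases make malonyl-CoA. Acaca (chr11:84129672-84401651, plus strand) encodes the cytosolic form, ACC1, whose malonyl-CoA feeds fatty acid synthesis. Acacb (chr5:114146535-114250761, plus strand) encodes ACC2, which sits at the outer mitochondrial membrane, where malonyl-CoA restrains the entry of fatty acids for oxidation. Acaca was the less abundant of the 2 per kb of exon. Its normalized count in control mice was 5398 to 11554 (median 9504) at RT and 5116, 8067, 5359, 3996 and 2315 at 4°C, so that 4 of the 5 cold mice were below every RT mouse. BAT-Mcu-KO mice had 3078 to 10047 (median 9470.5) at RT and 2713 to 5384 (median 4447) at 4°C. The fall of Acaca was 0.88 ± 0.29 on the log2 scale in control mice (-0.88, limma adjusted p = 0.0147) and 0.93 ± 0.28 in BAT-Mcu-KO mice (-0.93, adjusted p = 0.00821). It did not pass the test in control mice without replicate 5 at 4°C (-0.63, adjusted p = 0.0698).

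Acacb moved less but more evenly. Control mice had normalized counts of 9595 to 17886 (median 15033) at RT and of 10456, 11224, 9829.5, 9485 and 7790 at 4°C, where only 2 of the 5 cold mice were below every RT mouse. In BAT-Mcu-KO mice every cold mouse (9109 to 11312, median 9786) was below every RT mouse (13379 to 16940, median 13791), replicate 5 included. In control mice Acacb had a log2 fold change of -0.50 ± 0.13 (limma adjusted p = 0.00238), and in BAT-Mcu-KO mice it had -0.52 ± 0.12 (adjusted p = 0.00103), and both calls held without any 1 mouse. At RT there were 1.37 to 1.95 Acacb counts for each Acaca count in control mice, and at 4°C there were 1.39 to 3.37. In BAT-Mcu-KO mice the ratio was 1.38 to 4.35 at RT, with replicate 5 the highest, and 2.10 to 3.61 at 4°C. The ratios of the RT and cold mice overlapped in both genotypes. Among BAT-Mcu-KO mice the overlap came from replicate 5 alone: the other 5 RT mice were at 1.38 to 1.75, below each of the cold mice. Among control mice the overlap stayed without replicate 5 at 4°C, which had the highest ratio (the other 4 cold mice were at 1.39 to 2.37).

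Fasn (chr11:120805846-120824547, minus strand), fatty acid synthase, makes palmitate from malonyl-CoA and was the most abundant of the 9 transcripts in reads. It took 1.00% to 1.89% of all reads of a control mouse at RT and 0.454% to 1.203% at 4°C. Control mice had normalized counts of 135614 to 235980 (median 196963) at RT, and of 132019, 159787, 141758, 101473 and 54513 at 4°C. Only 3 of the 5 cold mice were below the lowest RT mouse. In BAT-Mcu-KO mice at RT, 5 mice had 180898 to 207270 and replicate 5 had 66885, below all 6 mice at 4°C (89156 to 129391, median 100156). Fasn fell by 0.73 ± 0.26 on the log2 scale in control mice (limma adjusted p = 0.0241) and by 0.68 ± 0.25 in BAT-Mcu-KO mice (adjusted p = 0.0292), to 1.59-fold and 1.69-fold lower means. These calls were near the threshold. In control mice the call was lost without replicate 5 at 4°C (-0.47, adjusted p = 0.115) or without replicate 3 at RT (adjusted p = 0.0541). In BAT-Mcu-KO mice the value was -0.94 without replicate 5 at RT (adjusted p = 0.000523), and the call was lost, with adjusted p up to 0.0643, in 8 of the 23 fits that left out 1 mouse: any of the other RT mice (replicates 1, 2, 3, 4 and 6) or replicate 3, 4 or 5 at 4°C.

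Me1 (chr9:86581371-86695953, minus strand) encodes the cytosolic malic enzyme, which supplies NADPH. Its normalized count in control mice was 3064 to 5618 (median 4721) at RT and 3461, 5747, 4217, 2302 and 1677 at 4°C. The highest control mouse of all was a cold mouse, and no RT mouse was above all cold mice. BAT-Mcu-KO mice had 1338 to 6619 (median 4795) at RT and 2182 to 4574 (median 2972) at 4°C, where the lowest RT mouse, replicate 5, was below every cold mouse. The log2 fold change of -0.44 ± 0.32 in control mice did not pass the test (limma adjusted p = 0.272, 95% interval -1.09 to 0.21), and neither did -0.44 ± 0.30 in BAT-Mcu-KO mice (adjusted p = 0.2503, interval -1.06 to 0.18). Without BAT-Mcu-KO replicate 5 at RT, Me1 in BAT-Mcu-KO mice was at -0.77 and passed (adjusted p = 0.0109).

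The regulators held the largest falls. Srebf1 (chr11:60199089-60222581, minus strand) encodes SREBP-1, a membrane-bound transcription factor that is cut free to enter the nucleus. In control mice its normalized count was 1649 to 2795 (median 2472) at RT and 307, 407, 398, 251 and 355 at 4°C. BAT-Mcu-KO mice had 1665 to 2936 (median 2001) at RT and 259 to 442 (median 346) at 4°C. No cold mouse came near an RT mouse in either genotype. The log2 fold change of Srebf1 was -2.78 ± 0.16 in control mice (limma adjusted p = 9.6e-13) and -2.60 ± 0.15 in BAT-Mcu-KO mice (adjusted p = 1.3e-12), and the means were 6.89-fold and 6.13-fold lower. The counts at 4°C rest on 152 to 570 reads per mouse. Srebf1 shares 109 exon bases with Rai1 on the other strand.

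Thrsp (chr7:97412938-97417730, minus strand) encodes Spot 14, a small protein of lipogenic tissues that responds to thyroid hormone and carbohydrate and promotes fatty acid synthesis. At RT its transcript was nearly even among control mice, at 45174 to 57425 (median 49224). At 4°C it was at 7094, 13223, 6441, 4354 and 3369. BAT-Mcu-KO mice had 28909 to 64873 (median 49494) at RT, with replicate 5 the lowest, and 4746 to 9266 (median 6252) at 4°C. The groups did not overlap in either genotype, replicate 5 included. The log2 fold change was -3.02 ± 0.24 in control mice (limma adjusted p = 2.1e-10) and -2.91 ± 0.23 in BAT-Mcu-KO mice (adjusted p = 1.9e-10), and the means were 7.25-fold and 7.53-fold lower.

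Mlxipl (chr5:135089890-135138382, plus strand) encodes ChREBP. Control mice had normalized counts of 1152 to 2058 (median 1648) at RT and of 902, 1228, 1114, 1191 and 1089 at 4°C. In BAT-Mcu-KO mice the highest cold mouse, at 1248, was just below the lowest RT mouse, at 1274, and the medians were 1146 and 1396. Mlxipl fell by 0.57 ± 0.15 on the log2 scale in control mice (limma adjusted p = 0.00338) and by 0.53 ± 0.14 in BAT-Mcu-KO mice (adjusted p = 0.0041), and both calls held without any 1 mouse. Gm43500 on the other strand covers 4.24% of its exon bases.

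**Figure D2:**
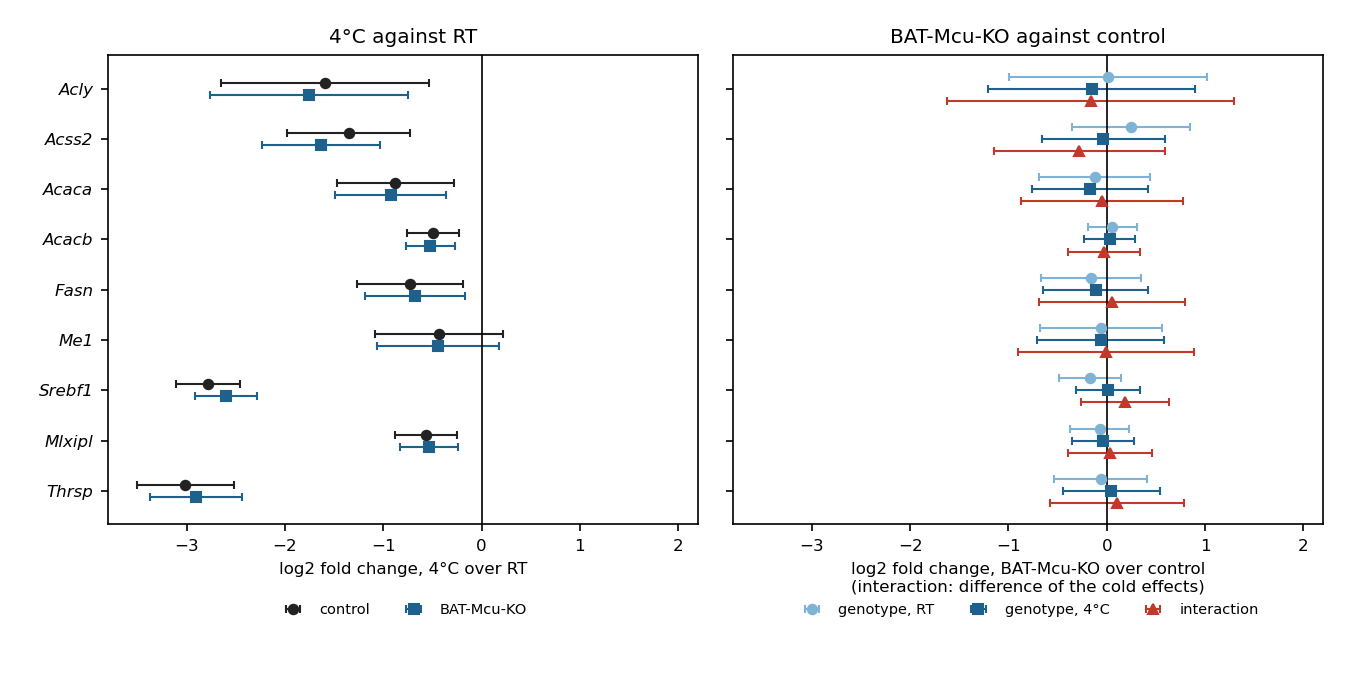
Log2 fold change of each gene (points) with its 95% interval from limma (whiskers), for 4°C over RT in each genotype on the left, and for BAT-Mcu-KO over control at RT and at 4°C with the interaction on the right, both on the same horizontal scale. On the left every interval except those of Me1 lies below 0, and on the right every interval holds 0.

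Relative to Fasn of the same mouse, Srebf1 and Thrsp were lower at 4°C than at RT. Each mouse was measured once, at RT or at 4°C, so the ratios were compared between groups. For every 1000 Fasn counts, a control mouse at RT had 11.6 to 16.4 Srebf1 counts and a control mouse at 4°C 2.33 to 6.52. The 6.52 was replicate 5, and the other 4 cold control mice were at 2.33 to 2.81. In BAT-Mcu-KO mice these ranges were 9.01 to 24.9 and 2.75 to 4.79, and the 24.9 was RT replicate 5, with the other 5 RT mice at 9.01 to 15.2. Thrsp went from 191 to 423 per 1000 Fasn counts at RT to 42.9 to 82.8 at 4°C in control mice, and from 224 to 432 (224 to 359 without RT replicate 5) to 53.2 to 101 in BAT-Mcu-KO mice. Neither ratio to Fasn overlapped between RT and 4°C in either genotype with all mice included. Leaving mice out cannot make ranges overlap, so the ranges without them are no further check. The mice left out were picked after their values were seen. The 2 transcription factors also parted: there were 1.09 to 1.93 Srebf1 counts per Mlxipl count in control mice at RT and 0.211 to 0.358 at 4°C, and 0.849 to 2.06 and 0.287 to 0.354 in BAT-Mcu-KO mice.

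The order of the levels changed with the cold. Levels were taken per kb of exon, the union of the exons of every transcript of the gene in GENCODE M21. This union was 10.2 kb for Acss2 and 17.1 kb for Acaca. The place of a gene among the 9 depends on this length, and no other length was tried. Thrsp was the most abundant of the 9 at RT in both genotypes. In control mice it had a mean normalized count of 22831 ± 2158 per kb (SD, n = 6), followed by Fasn at 17089 ± 3649.6, and these neighbours overlapped, with 5 of the 6 mice holding more Thrsp. Acly came next at 5345 ± 1706 with no overlap with Fasn, and then Acacb at 1453 ± 336 and Me1 at 1148 ± 282. Acaca, Srebf1, Acss2 and Mlxipl, at 515 ± 149 down to 299.0 ± 57.9, each overlapped the next in this order. At 4°C Fasn stood first, at 10771 ± 3769 per kb in control mice (n = 5), and Thrsp had 3150.3 ± 1757. Every control mouse at 4°C had more Fasn than Thrsp per kb. Srebf1 went from the seventh place to the last, at 61.0 ± 11.6, with no overlap with Acss2, the next above it. In BAT-Mcu-KO mice (n = 6) Fasn at 9428 ± 1355 and Thrsp at 2981 ± 757 per kb did not overlap at 4°C, and Srebf1 was again the last, at 61.5 ± 10.6.

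No difference by genotype was detectable in any of the 9 genes. At RT limma called 0 of the 9 by genotype (smallest adjusted p = 0.992), beside 0.0478% of all genes, and at 4°C 0 of the 9 (smallest adjusted p = 0.942), beside 0.0751%. These shares are 7 and 11 of the 14651 genes, and leaving out 1 mouse at a time gave 5 to 8 at RT and 3 to 16 at 4°C. The interaction, which asks whether cold acted differently in the 2 genotypes, called 0 of the 9 (smallest adjusted p = 0.928) and 0 of the 14651 genes (0%), 878 of which had an unadjusted p under 0.05. None of the 9 had an unadjusted p under 0.05 in any of these comparisons, and edgeR and DESeq2 on the recovered reads called none of the 9 either. DESeq2 called 28 genes of the table for the interaction, and edgeR 0.

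What the data leave possible differs among the genes. At RT the log2 fold change of BAT-Mcu-KO over control was 0.06 for Acacb, with a 95% interval of -0.19 to 0.31, the narrowest, and 0.01 for Acly, with an interval of -0.996 to 1.02, the widest. Fasn was at -0.16 (-0.67 to 0.35), Srebf1 at -0.17 (-0.48 to 0.14), Thrsp at -0.06 (-0.53 to 0.41) and Acss2 at 0.24 (-0.35 to 0.84). At 4°C the values lay between -0.17 (Acaca, interval -0.76 to 0.42) and 0.05 (Thrsp, -0.45 to 0.54). For the interaction, the difference of the cold effects was 0.18 for Srebf1 (-0.27 to 0.64), 0.11 for Thrsp (-0.57 to 0.79), 0.05 for Fasn (-0.69 to 0.79) and -0.16 for Acly (-1.62 to 1.29). Acly was also the gene whose mice differed most, and a 2-fold higher level in BAT-Mcu-KO mice at RT lies inside its interval.

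Mice of the same group differed together in 5 of the 6 enzymes. After the mean of each group was subtracted from the log2 values, the 10 pairs among Fasn, Acly, Acaca, Acss2 and Me1 had Pearson correlations of 0.865 to 0.959 over the 23 mice, with permutation p adjusted over all 36 pairs of 0.000108 or less. Fasn and Acaca were the closest pair (r = 0.959, Spearman rho = 0.923, permutation p = 1e-05, the smallest that 100000 permutations can give). Leaving out the 2 mice farthest from the median of the first gene, control replicate 5 at 4°C and BAT-Mcu-KO replicate 5 at RT, left the 10 pairs at 0.804 to 0.926. Acacb, the other enzyme, had lower correlations with these 5, from 0.556 with Me1 to 0.690 with Acss2 (rho = 0.568 to 0.762, adjusted permutation p of 0.00379 or less for r and 0.017 or less for rho). Without the same 2 mice these r were 0.586 with Acly to 0.752 with Fasn, nearer to the 0.804 to 0.926 of the 10 pairs. Without BAT-Mcu-KO replicate 5 at RT alone they were 0.647 with Acly to 0.770 with Acaca, and the 10 pairs were at 0.826 or more. Srebf1 and Mlxipl also had lower correlations with Fasn than those among the 5, and Thrsp differed from enzyme to enzyme. Fasn and Thrsp had r = 0.652 (rho = 0.422, permutation p = 0.00676 and 0.0612, adjusted 0.0122 and 0.0848), which became 0.352 without those 2 mice, so this relation rests on them. With Thrsp, r was 0.767 for Acly, 0.743 for Acss2, 0.746 for Me1 and 0.698 for Acaca (adjusted permutation p = 0.00273, 0.00196, 0.00187 and 0.00348), and without the same 2 mice it was 0.615, 0.602, 0.603 and 0.487. Spearman's rho for these 4 pairs was 0.566, 0.551, 0.548 and 0.405 (adjusted permutation p = 0.0315, 0.0254, 0.0315 and 0.0903). Fasn and Srebf1 had r = 0.426 (rho = 0.485, permutation p = 0.0813 and 0.0267, adjusted 0.0998 and 0.0418; 0.529 without the 2 mice). Fasn and Mlxipl had r = 0.378 (rho = 0.439, permutation p = 0.0919 and 0.0338, adjusted 0.103 and 0.0507; 0.490 without them). Of the 36 pairs, 25 had an adjusted permutation p under 0.05 for Pearson's r, and 0 had an r below 0. The share among pairs of other genes was not tested. With Fasn, the median r was 0.02 over 9522 other genes whose mean count reached 50. Acly, Acaca, Acss2 and Me1 each had a higher r with Fasn than 99.96% or more of those genes. For Thrsp this share was 98.9%, for Acacb 98.7%, for Srebf1 92.9% and for Mlxipl 90.0%. All values of a mouse come from the same library and share its depth. No sequencing batch is given in the sources used here, so no value within batches could be had.

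**Figure D3:**
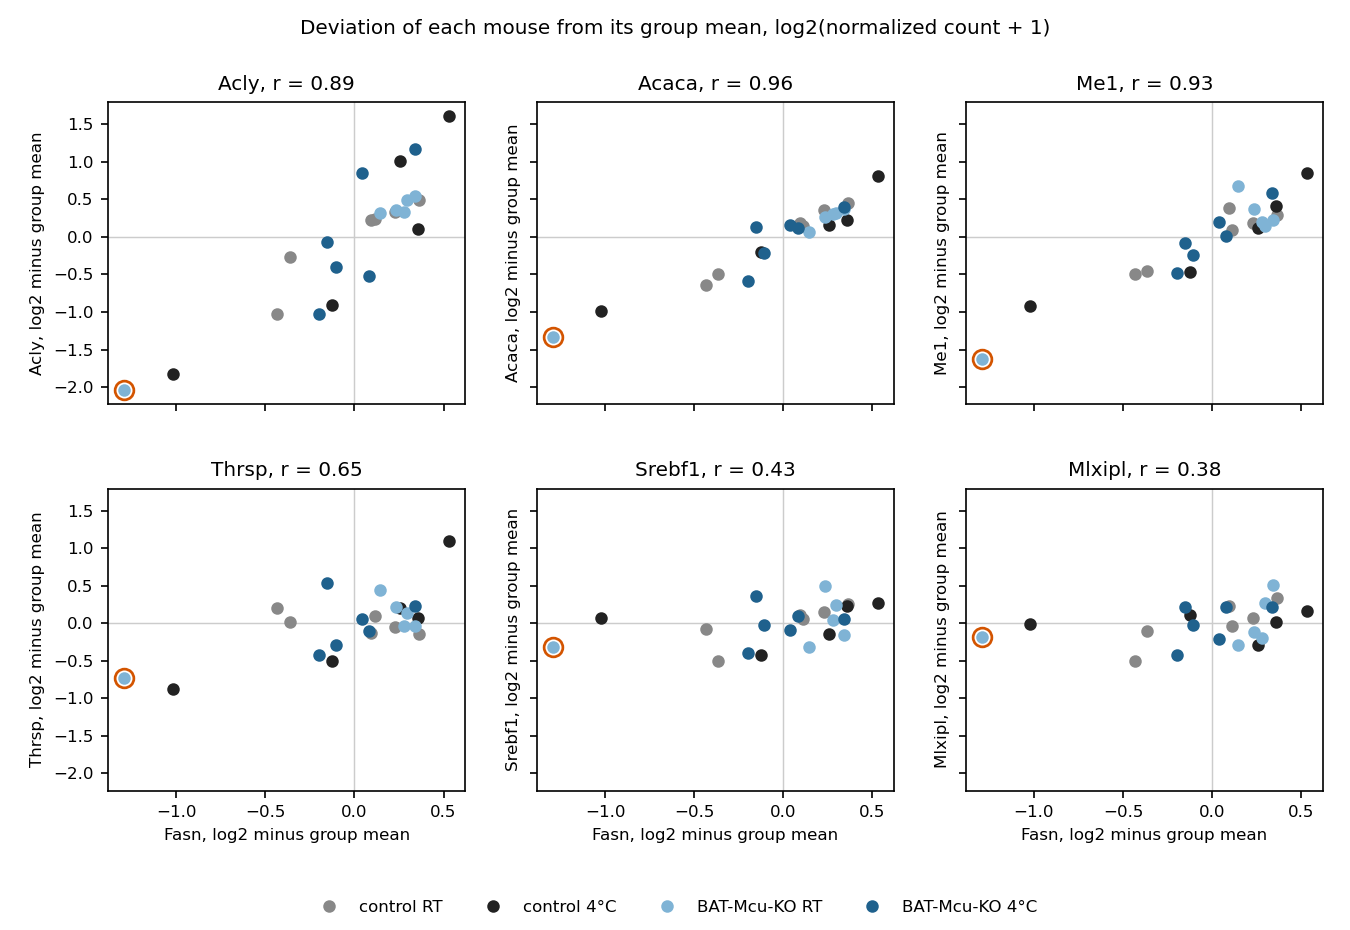
Each point is a mouse, placed by the difference of its log2(normalized count + 1) from the mean of its group for Fasn (horizontal) and for another gene (vertical); colours give the group, the orange ring marks BAT-Mcu-KO replicate 5 at RT, and r is Pearson's over the 23 mice. Acly, Acaca and Me1 follow Fasn closely, and Srebf1 and Mlxipl spread little and follow it less.

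The spread within groups was unequal. Acly had an SD of 1.39 on the log2 scale among control mice at 4°C and 1.01 among BAT-Mcu-KO mice at RT, whereas Srebf1 had 0.288 and 0.328 in the same groups and Acacb 0.198 and 0.127. The control mouse at 4°C with the lowest Acly, replicate 5, also had the lowest Fasn, Acaca, Acss2, Acacb, Me1 and Thrsp of its group. The highest in all of these was replicate 2. In control mice at RT, replicates 1 and 6 were the 2 lowest mice in Acly, Acaca, Acss2, Acacb, Fasn and Me1, but replicate 6 had the highest Thrsp of that group.

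Other genes of the pathway were counted from a list of 46 genes in 8 roles, of which 44 were measured. By cold, 10 rose and 15 fell in control mice, and 8 rose and 13 fell in BAT-Mcu-KO mice. Of all genes, 22.3% were called higher and 23.7% lower in control mice, and 21.4% higher and 21.9% lower in BAT-Mcu-KO mice. The counts by role below stand beside these same shares. Each role holds few genes, and none was tested against the shares. None of the 44 was called by genotype at RT, by genotype at 4°C or for the interaction in limma, edgeR or DESeq2. At an unadjusted p under 0.05 in limma there were 3, 5 and 1 of the 44 (6.82%, 11.4% and 2.27%), beside 754, 1023 and 878 of the 14651 genes (5.15%, 6.98% and 5.99%). The median log2 fold change of the list by cold was -0.15 in control mice and -0.04 in BAT-Mcu-KO mice, beside -0.02 for all genes.

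Among genes that supply precursors, 3 of 5 fell and 1 rose in both genotypes. Aacs, which activates acetoacetate in the cytosol for lipid synthesis, fell most (-2.56 ± 0.23 in control mice and -2.21 ± 0.22 in BAT-Mcu-KO mice, limma adjusted p = 1.9e-09 and 1.1e-08). Slc25a1, the carrier that brings citrate out of mitochondria for ATP citrate lyase, fell by 0.94 ± 0.31 and 1.07 ± 0.30 on the log2 scale (adjusted p = 0.0164 and 0.00522). Acss1, which activates acetate inside mitochondria, rose by 0.52 ± 0.10 and 0.41 ± 0.09 (adjusted p = 0.000125 and 0.000975). It therefore went the other way from Acss2. Of the 7 genes of NADPH supply, 5 fell in control mice and 4 in BAT-Mcu-KO mice, and none rose. Tkt, the transketolase of the pentose phosphate pathway, had -0.99 ± 0.17 and -1.05 ± 0.16 (adjusted p = 4.1e-05 and 1.1e-05), and Pgd, which makes NADPH in that pathway, -0.93 ± 0.24 and -0.87 ± 0.23 (adjusted p = 0.00217 and 0.0028).

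Elongases and desaturases, which lengthen fatty acids and add double bonds, were mixed. Elovl3, a long-chain elongase known to be induced by cold in brown fat, rose by 2.55 ± 0.29 in control mice and 2.65 ± 0.28 in BAT-Mcu-KO mice (limma adjusted p = 9.5e-08 and 2.6e-08). Scd2, a stearoyl-CoA desaturase, had -1.35 ± 0.44 and -1.36 ± 0.42 (adjusted p = 0.0144 and 0.0109). Fads2, a desaturase of polyunsaturated fatty acids, passed in control mice (0.59 ± 0.23, adjusted p = 0.0342), and in BAT-Mcu-KO mice it was at 0.20 ± 0.22 (adjusted p = 0.489). In all, 2 of the 7 rose and 1 fell in control mice, and 1 rose and 3 fell in BAT-Mcu-KO mice. Of 5 genes of mitochondrial fatty acid synthesis that were measured, 2 fell in each genotype, Mcat (-1.15 ± 0.21 and -1.06 ± 0.20, adjusted p = 6.3e-05 and 0.000101) and Cbr4 (-0.76 ± 0.14 and -0.52 ± 0.13, adjusted p = 7.6e-05 and 0.00246), the first of which loads malonyl groups onto the acyl carrier.

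Of the 6 genes that process SREBP, 3 rose and 1 fell in control mice and 2 rose in BAT-Mcu-KO mice. Insig2, which holds SREBP in the endoplasmic reticulum, rose by 0.65 ± 0.09 and 0.83 ± 0.09 on the log2 scale (limma adjusted p = 2.4e-06 and 3.4e-08). Srebf2, which encodes SREBP-2, the factor for sterol synthesis, rose by 0.58 ± 0.16 and 0.50 ± 0.16 (adjusted p = 0.00499 and 0.0111), in the opposite direction to Srebf1. Mbtps1, a protease that cuts SREBP, was at -0.34 ± 0.09 in control mice (adjusted p = 0.00212) and at -0.14 ± 0.08 in BAT-Mcu-KO mice (adjusted p = 0.166). Mlx, the partner of ChREBP on DNA, rose by 0.36 ± 0.10 and 0.35 ± 0.09 (adjusted p = 0.00331 and 0.00323), and the other 2 measured genes of its role were not called. Among 6 other regulators, Mid1ip1, a relative of Thrsp that activates ACC, had -0.88 ± 0.24 and -1.001 ± 0.23 (adjusted p = 0.00351 and 0.000758). Usf2, a factor that binds E-boxes, passed in control mice alone (-0.44 ± 0.17, adjusted p = 0.0424, against -0.28 ± 0.17, adjusted p = 0.187), and the difference between the genotypes was not called.

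Of the 5 genes that turn over or sense malonyl-CoA, 3 rose in control mice and 2 in BAT-Mcu-KO mice, and none fell. Mlycd, malonyl-CoA decarboxylase, which breaks malonyl-CoA down, rose by 1.01 ± 0.13 and 1.05 ± 0.12 (limma adjusted p = 3.5e-07 and 9.5e-08), opposite to Acaca and Acacb. Prkaa2, a catalytic subunit of AMPK, the kinase that inhibits the acetyl-CoA carboxylases, rose by 0.69 ± 0.14 in control mice (adjusted p = 0.000174) and was at 0.08 ± 0.13 in BAT-Mcu-KO mice (adjusted p = 0.663). Its interaction had the smallest adjusted p of the whole list, 0.741. It did not pass.

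**Figure D4:**
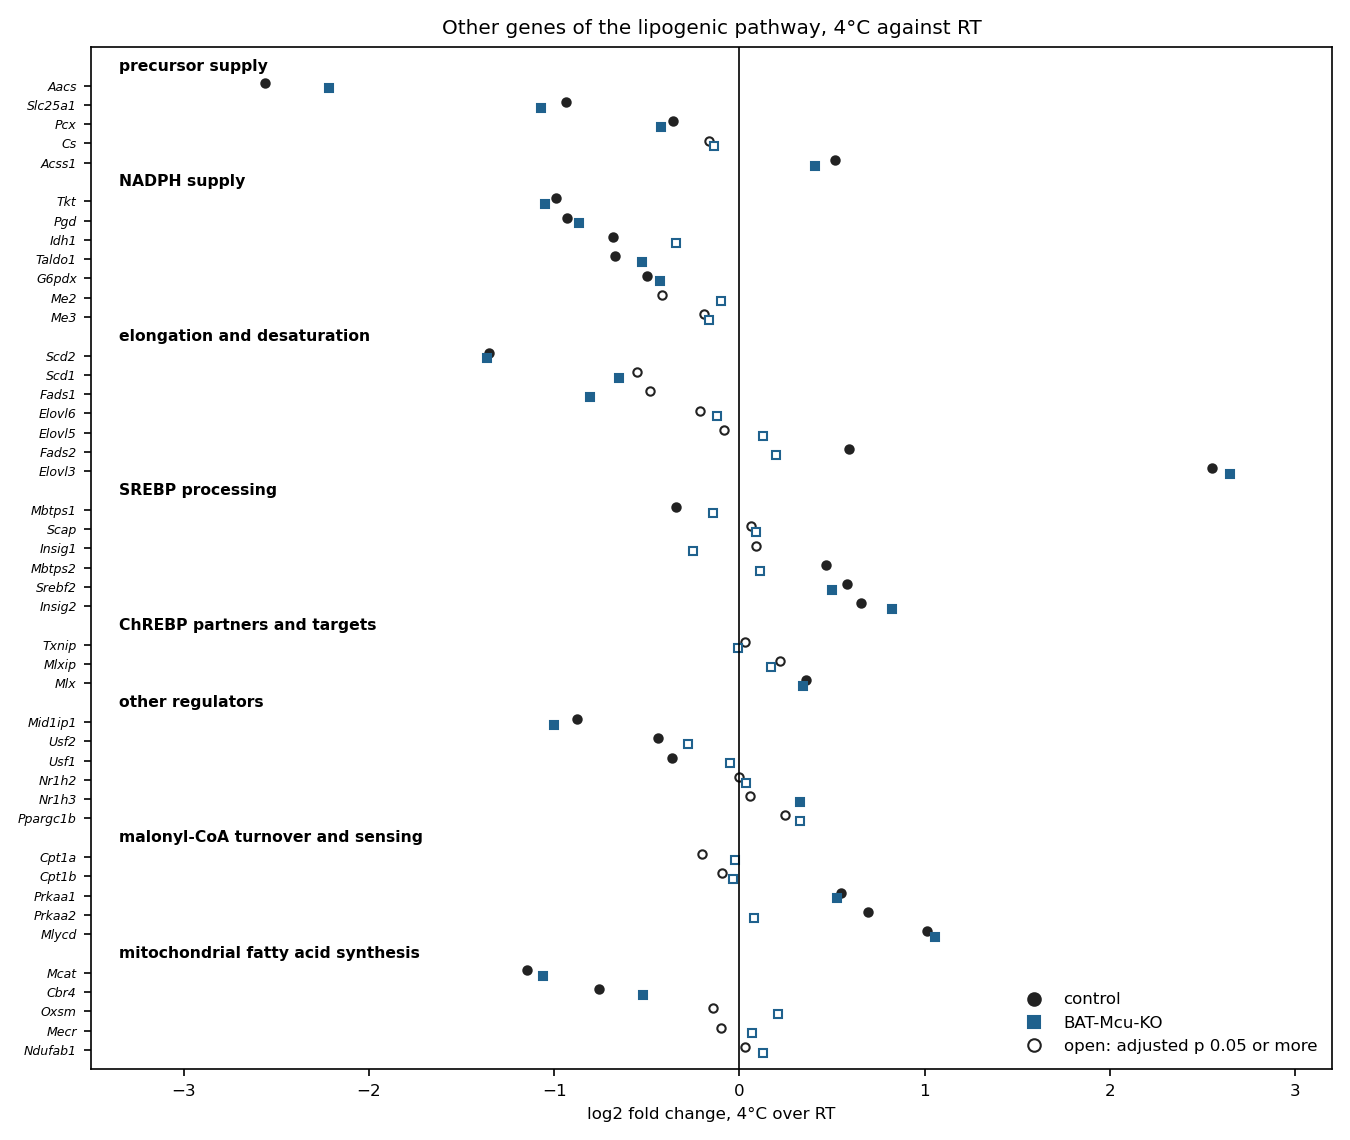
Log2 fold change at 4°C over RT (horizontal) for the 44 other measured genes of the pathway by role, in control (black circles) and BAT-Mcu-KO mice (blue squares); filled symbols passed the test at an adjusted p under 0.05 and open symbols did not. Aacs lies farthest left and Elovl3 farthest right, and all 7 genes of NADPH supply lie left of 0 in both genotypes.

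Markers of other cell types moved as follows beside these results. Their calls by cold stand beside the shares of all genes given above. The summed normalized count of the 5 endothelial markers was 2844 to 4139 in control mice at RT and 5576 to 9764 at 4°C, and 3114 to 4377 and 5166 to 9121 in BAT-Mcu-KO mice, and 3 of the 5 rose in each genotype. The 8 markers of brown adipocytes, which include the cold-induced Ucp1 and Ppargc1a, summed to 178741 to 255163 at RT and 275605 to 339681 at 4°C. Of these, 3 were called higher and 3 lower in control mice, and 2 higher and 1 lower in BAT-Mcu-KO mice. The 6 skeletal muscle markers varied from a sum of 0 to 41185, and 0 of them was called in any comparison. Their sums were 13.9 to 5343 in control mice at RT, 0 to 28362 in control mice at 4°C, and among BAT-Mcu-KO mice 4.65 to 41185 at RT against 34.2 to 7322 at 4°C. BAT-Mcu-KO replicate 5 at RT had the lowest sum of its group for muscle, 4.65, and sums of 193288 for brown adipocytes and 4116 for endothelium, inside the range of its group. Macrophage markers summed to 206 to 663 over all mice, with 0 of 5 called in control and 2 of 5 higher in BAT-Mcu-KO mice. Of the 5 white adipocyte markers 3 were measured, summing to 144 to 689 at RT and 56.5 to 121 at 4°C, and 1 was lower in control mice and 3 in BAT-Mcu-KO mice; Lep was at 0 in some of the mice at 4°C. None of the 4 liver markers was among the 14651 genes. The part of any cell type, brown adipocytes included, in the fall of the lipogenic transcripts was not tested.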

How the data were processed

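Brown fat RNA of 23 mice was sequenced from Smart-seq2 libraries, which amplify full-length cDNA by PCR, with paired reads. The authors aligned the reads to mm10 (GENCODE M7) with STAR version 2.4.0j, counted uniquely mapped exonic reads with HTSeq irrespective of strand, and dropped genes that did not reach 8 reads in 6 samples or more. The authors deposited, as their signal, read counts divided by the sample's DESeq2 size factor. These values were whole multiples of the worth of 1 read in 100% of cases (tolerance 0.05 read), so reads could be recovered, 7129271 to 21006347 per mouse. Intervals cover the spread between mice, and read numbers counting error only. A second deposited table holds the authors' own comparisons and was not used. No per-sample column was left out (0 columns).

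Groups and replicate numbers came from the sample labels, and each replicate is a mouse. Differences were tested by limma (R version 4.3.3, limma version 3.58.1) applied to log2(normalized count + 1), from 4 group means over all 23 samples and a variance trend; a fold change on this scale understates that of low genes. Correlations used 100000 permutations within groups. Alternatives were a pseudocount of 0.5 or 10.0, genes with a mean count of 50.0 or more, scaling to the 75th percentile, quantile normalization, no trend, only the compared groups, the replicate number as a block, edgeR version 4.0.16 and DESeq2 version 1.42.0 on recovered reads, and each mouse left out in turn. The scripts were tested on simulated data. Gene positions are from GENCODE M21 on GRCm38. Python version 3.11.15 with pandas version 2.3.3, scipy version 1.17.1 and matplotlib version 3.10.9 made the summaries and figures.

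All 9 genes were described in every mouse. From each role of the pathway list, up to 2 called genes per direction with the largest change by cold in control mice were named, and markers were given as whole lists. The genes and lists were chosen with earlier results of these data known.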

Additional observations from a re-analysis of the deposited data

Results flagged for a closer look

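In each of the 4 groups and for each of the 9 genes, the highest and the lowest mouse were checked for a gap from the rest of the group above Dixon's 95% critical value. The check used normalized counts, not their logs. Of the 36 sets of values, 4 had such a mouse. For a single set chance gives about 1 in 20, but the sets share mice whose genes differed together. They are not independent, so the 4 cannot be set against that rate. In 3 of them it was BAT-Mcu-KO replicate 5 at RT: its normalized count was 6512 for Acly (others 33514 to 39294), 3078 for Acaca (others 8092 to 10047) and 66885 for Fasn (others 180898 to 207270). The fourth was BAT-Mcu-KO replicate 2 at RT, with 16939.9 for Acacb against 13379 to 14102 in the others. Acacb in replicate 5 was the lowest of its group, at 13379, next to 13532 in replicate 4.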

How the results depend on the processing

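None of the 18 values for cold (9 genes in 2 genotypes) changed its side of the threshold or its direction under the 10 alternatives that kept all mice. Leaving out 1 mouse at a time reversed none of them. The number of the 9 genes called by cold was 5 to 8 in control mice (5 without replicate 5 at 4°C, where Acly, Acaca and Fasn were lost) and 7 to 9 in BAT-Mcu-KO mice. The cause was not tested.

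No value for genotype or the interaction passed the test under any alternative (smallest adjusted p = 0.778), and the sign of some turned. At RT, scaling to the 75th percentile put Acly at -0.0191, and Me1 was at 0.0494 with edgeR and 0.0515 with DESeq2. At 4°C, quantile normalization gave -0.0478 for Acacb, and Thrsp was at -0.0779 with edgeR and at -0.0794 with DESeq2. For the interaction, scaling to the 75th percentile gave 0.0112 for Acaca, 0.0299 for Acacb and 0.0504 for Me1, quantile normalization 0.00891 for Me1, edgeR -0.0904 for Fasn and -0.0519 for Thrsp, and DESeq2 -0.0922 for Fasn and -0.0548 for Thrsp.

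Mice with the same replicate number are different animals. Their deviations from the group means had mean correlations of -0.01 for cold in control mice, -0.16 for cold in BAT-Mcu-KO mice, -0.09 for genotype at RT and 0.21 for genotype at 4°C (where 4 of 5 pairs were over 0.1), so the numbers were not taken to pair the mice. With the replicate block, 8 of the 9 genes were called by cold in each genotype, and at 4°C by genotype Acss2 was at 0.0220 and Srebf1 at -0.0199, and Acacb was at 0.00528 for the interaction. Over all genes the block moved the calls by genotype at 4°C from 11 to 7, a fit of the compared groups alone called 3 in place of 7 at RT and 2 at 4°C, edgeR called 6 at 4°C, and DESeq2 called 20 at RT, 23 at 4°C and 28 for the interaction in place of 0. Leaving out 1 mouse gave 3 to 16 calls by genotype at 4°C (3 without control replicate 2, 6 without BAT-Mcu-KO replicate 4 and 7 without control replicate 5, all at 4°C), 5 to 8 at RT, and 0 or 1 for the interaction (1 without control replicate 1 at 4°C).

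Leaving out 1 mouse at a time also turned signs among these values near 0. Values by genotype at RT that changed sign ran over these fits as follows: Acly from -0.20 to 0.42, Acaca from -0.25 to 0.14, Acacb from -0.045 to 0.13, Fasn from -0.25 to 0.10, Me1 from -0.19 to 0.27 and Thrsp from -0.15 to 0.083. Values by genotype at 4°C that changed sign ran over these fits as follows: Acly from -0.61 to 0.25, Acss2 from -0.26 to 0.24, Acaca from -0.42 to 0.033, Acacb from -0.049 to 0.082, Fasn from -0.37 to 0.021, Me1 from -0.29 to 0.15, Srebf1 from -0.092 to 0.095, Mlxipl from -0.11 to 0.046 and Thrsp from -0.17 to 0.32. Values for the interaction that changed sign ran over these fits as follows: Acly from -0.62 to 0.24, Acss2 from -0.51 to 0.00055, Acaca from -0.31 to 0.16, Acacb from -0.11 to 0.074, Fasn from -0.21 to 0.18, Me1 from -0.33 to 0.21, Mlxipl from -0.038 to 0.13 and Thrsp from -0.11 to 0.38.

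The lowest count of any of the 9 genes rests on 152 reads, and each group holds 5 or 6 mice.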

Other observations

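Outside the 9 genes and among the 9522 genes whose mean count reached 50, the 5 whose deviations from the group mean were most like those of Fasn over the 23 mice were Slc25a1 (Pearson r = 0.930), the mitochondrial citrate carrier, Tkt (0.910), transketolase, Slc2a5 (0.8998), which encodes the fructose transporter GLUT5, Pdk1 (0.884), a kinase that inhibits pyruvate dehydrogenase, and Elovl6 (0.859), the elongase of palmitate. They were chosen for this likeness, so it is a description. The values of a mouse share a library. Slc2a5 had a normalized count of 12.1 in BAT-Mcu-KO replicate 5 at RT and of 133 to 235 in the other 5 mice of that group, and of 23.3 in control replicate 5 at 4°C against 59.5 to 153 in the other 4. Elovl6, which was not called by cold in either genotype, had its lowest count of all mice, 5646, in the same BAT-Mcu-KO mouse.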
